A study of Mus musculus with 12 samples.

Results

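Loud sound was compared with ambient sound in the cochlea, the part of the ear that turns sound into nerve signals, of FVB/NCrl mice, an inbred strain, at postnatal day 60. The noise group joined 8 libraries, 4 from awake mice kept for 30 minutes at 94 dB SPL (sound pressure level in decibels) and 4 from mice kept as long at 105 dB SPL, and was taken as the mean of the 2 level means. The control group was 4 libraries from mice held for 30 minutes at 70 dB SPL, the ambient level, and no other difference between the groups is given in the labels. All 12 libraries of the series entered the comparison. RNA was taken directly after the exposure, so the values describe transcripts at that time only. Of the 35496 genes in the count table, 19497 passed a filter on low counts and were tested, and 640 of these moved alike at both noise levels by a rule of 5 conditions. Whether each library came from a single mouse or from several is not given in the labels, so the p-values measure no more than the spread among these 12 samples, part of which may be technical.

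A gene was called when its adjusted p was under 0.05 by edgeR's quasi-likelihood test with Benjamini-Hochberg adjustment over all 19497 genes. It moved alike when it was called in the pooled comparison, had the same sign at both levels, had all 8 noise libraries on 1 side of all 4 ambient libraries, was not called between 105 and 94 dB, and changed at the weaker level by at least 0.5 times the log2 change at the stronger level. In genes that moved alike, the lack of overlap with ambient libraries is thus set by the rule and is no further evidence. Levels are given in CPM (counts relative to library size, after TMM scaling), changes as log2 fold changes of the fit with their standard error (SE), and values of a group are listed in the order of replicates 1 to 4.

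Loud sound drives hair cells and auditory neurons, and calcium and cAMP signals in excited cells reach the nucleus within minutes. Immediate early genes are transcribed at once from factors already present in the cell, among them CREB, which binds the cAMP response element (CRE). Many of their products are transcription factors, and others shut the signal off or speed the decay of short-lived messenger RNA. Glucocorticoids, the adrenal stress hormones, act through a receptor that binds its own response element (GRE) and turn on a separate group of early genes that includes the clock gene Per1.

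The genes that rose most at both levels are shown here with the DNA just upstream of their starts, because several share 1 short run of letters. Searched were 250 bases upstream of each start in RefSeq promoters of GRCm38.p6, on both strands, and 12 of the 15 strongest risers had an entry. The half-site of the CRE, TGACG, which reads as CGTCA on the other strand, was found in 9 of these 12 genes: Fos, Nr4a1, Atf3, Apold1, Per1, Nr4a3, Dusp1, Ccn1 and Tsc22d3. The half-site also lies within the full CRE, TGACGTCA, which 1 of the 12, Dusp1, held. Of the motifs counted in these 12 genes, the half-site was the most frequent. TATAAA was found in 4 of them and an NF-kB site in 1, while the AP-1 site TGAGTCA, the CArG box of the factor SRF and the GRE were found in none. Among all genes tested with an entry, TATAAA stood in 8.97%, the NF-kB site in 5.65%, the AP-1 site in 4.36% and the CArG box in 1.42%. At such shares a lack of matches in 12 genes tells little, and sites beyond 250 bases were not searched. In the 6 windows of 110 bases that follow, capitals mark the half-site or the full CRE. They are from Fos (chr12:85473761-85473870, plus strand), Nr4a1 (chr15:101266736-101266845, plus), Nr4a3 (chr4:48045074-48045183, plus), Atf3 (chr1:191183334-191183443, minus), Dusp1 (chr17:26508554-26508663, minus) and Ccn1 (chr3:145649986-145650095, minus).
Fos: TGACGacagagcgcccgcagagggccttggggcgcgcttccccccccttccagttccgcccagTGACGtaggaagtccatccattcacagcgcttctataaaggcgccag
Nr4a1: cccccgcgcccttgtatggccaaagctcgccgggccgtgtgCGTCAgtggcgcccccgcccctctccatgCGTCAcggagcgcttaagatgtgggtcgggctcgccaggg
Nr4a3: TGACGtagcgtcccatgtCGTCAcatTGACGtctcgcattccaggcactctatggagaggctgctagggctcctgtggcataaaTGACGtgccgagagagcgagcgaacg
Atf3: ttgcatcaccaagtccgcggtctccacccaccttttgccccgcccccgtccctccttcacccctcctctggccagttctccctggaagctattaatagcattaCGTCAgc
Dusp1: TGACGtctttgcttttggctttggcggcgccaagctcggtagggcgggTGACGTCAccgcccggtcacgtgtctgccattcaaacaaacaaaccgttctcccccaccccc
Ccn1: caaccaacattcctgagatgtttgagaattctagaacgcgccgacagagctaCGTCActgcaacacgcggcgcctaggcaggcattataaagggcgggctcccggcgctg

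The half-site is short and common. It stood in 95 of 314 windows of the genes higher alike (30.3%), 52 of 285 of those lower alike (18.2%), 4038 of 17174 of all genes tested (23.5%) and 5836 of all 32851 promoters of that length (17.8%). Counted by gene, as for the risers, it stood in 88 of 257 higher alike (34.2%), 48 of 219 lower alike (21.9%) and 3691 of 13539 tested (27.3%). The full CRE stood in 3.82%, 1.40%, 2.27% and 1.55% of the same windows, and the E-box CACGTG, the site of clock and other helix-loop-helix factors, in 11.5%, 7.02%, 7.54% and 6.02%. The GRE, searched as AGAACA and TGTTCT with any 3 bases between them, stood in 1 window of the 17174 of genes tested and in 3 of all 32851. That window belongs to Sgk1, a kinase gene and known glucocorticoid target, which was added for its match after the search (chr10:21993701-21993810, plus strand, GRE in capitals).
Sgk1: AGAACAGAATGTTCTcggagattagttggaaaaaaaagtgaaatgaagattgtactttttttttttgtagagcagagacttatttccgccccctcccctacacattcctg
A match describes letters in these windows and is not a measured binding site.

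In the pooled comparison 2697 genes were called (13.8%), 1409 higher (7.23%) and 1288 lower (6.61%) after noise. With upper-quartile scaling, which shifted the median log2 change of all genes from -0.01 to -0.03, the split turned to 1177 higher and 1739 lower. The same sign at both levels was seen in 2659 of the 2697, and no overlap between the 8 noise and 4 ambient libraries in 828 of these. Over all genes tested, the groups did not overlap in 938 (4.81%), with the noise libraries above in 489 (2.51%) and below in 449 (2.3%). Of the 828, 683 were not called between the levels, and 640 of these (3.28% of all genes) also met the condition on the weaker level, 330 higher (1.69%) and 310 lower (1.59%). The median size of change was 1.34-fold for the 330 and 1.29-fold for the 310, and 52 of the former and 12 of the latter passed 2-fold.

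The pooled count depended on single libraries: it was 1023 without ambient replicate 4, 1586 without ambient replicate 3, 1757 without 105 dB replicate 2 and 1482 without 94 dB replicates 3 and 4. Alike genes numbered 247 higher and 159 lower without ambient replicate 4, 570 lower without ambient replicate 2 and 553 higher without 105 dB replicate 4. A set of 277 genes, 176 higher and 101 lower, moved alike whichever library was left out. Among the largest rises and falls named below, Fos, Depp1, Snai2, Ncam2, Luzp2, Necab1 and Trpa1 were outside this set. Fos, Depp1 and Snai2 were still called in the pooled comparison in each of these 12 fits.

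**Figure D1:**
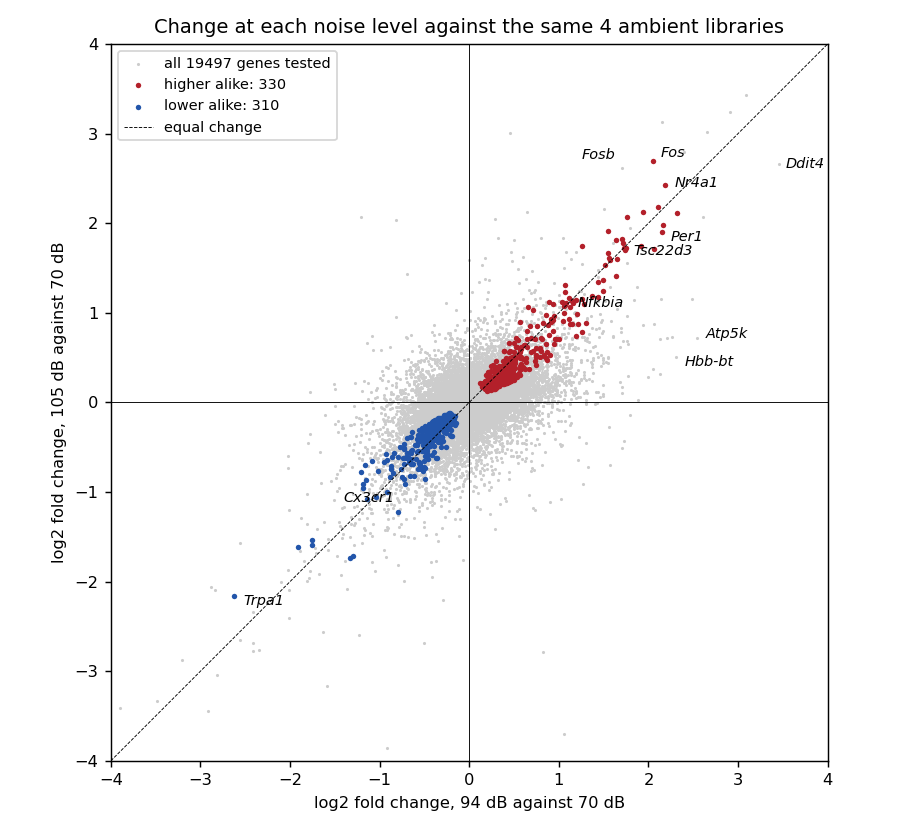
Each point is 1 of 19497 genes, with the log2 fold change of 94 dB against 70 dB on the x axis and of 105 dB against 70 dB on the y axis; red points are the 330 genes higher alike and blue points the 310 lower alike. Both axes use the same 4 ambient libraries, so part of the slope is shared by construction, and 10 genes lie beyond the limits of 4. Nr4a1 lies near the line of equal change, Fos above it by 0.64, and Ddit4, Atp5k and Hbb-bt below it.

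The rule keeps genes whose levels differ little, so the size of the level difference among the 640 is a description. The 95% interval of the 105 against 94 dB difference lay within a 1.5-fold change in either direction in 561 of the 640 genes (87.7%), against 61.9% of all genes tested, and within 2-fold in 628. The larger of both changes was the 94 dB one in 433 genes and the 105 dB one in 207.

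Transcription factors of the immediate early class led the genes that rose alike. Of 9 AP-1 genes, Atf3 included, 7 were called higher and none lower, 4 of them alike (Fos, Jun, Fosl2 and Atf3), with a list median of 0.96 against -0.01 over all genes. Of 20 other immediate early factors, 15 were called higher and none lower, 8 alike, with a median of 0.46. These shares, 77.8% and 75%, stand beside 13.8% of all genes. The first count was also 7 without ambient replicate 4, while the second fell to 9 without it and to 10 without 94 dB replicates 3 and 4.

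Fos (ENSMUSG00000021250; mm10 chromosome 12, 85473890 to 85477273) encodes the partner of Jun in the AP-1 factor. Its ambient libraries stood at 8.31, 15.6, 15.6 and 10.4 CPM, those at 94 dB at 58.3, 45.7, 50.3 and 53.1, and those at 105 dB at 70.8, 89.0, 60.3 and 103. All 8 noise libraries lay above the ambient ones, and all 4 at 105 dB above all 4 at 94 dB. The pooled log2 change was 2.37 (SE 0.21; adjusted p = 9.65e-05 by edgeR), and the 105 minus 94 dB difference was 0.64 with an interval of 0.17 to 1.10 and an adjusted p of 0.0605 by edgeR, so Fos met the rule although its interval lay above 0. Jun stood at 56.6, 58.8, 63.0 and 53.4 CPM in the ambient libraries and at 96.0 to 128 in the noise libraries, a log2 change of 0.96 (SE 0.08), with a level difference of 0.02 (interval -0.16 to 0.20). Atf3, a stress-induced repressor of the same family, rose from 6.70, 12.9, 11.2 and 6.34 CPM to 27.1 to 51.9 (log2 2.21, SE 0.23), and its lowest noise library was 105 dB replicate 3.

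The NR4A genes encode orphan nuclear receptors that need no ligand. Nr4a1 (ENSMUSG00000023034; chromosome 15, 101254269 to 101274795) stood at 31.9, 30.7, 55.5 and 25.8 CPM in the ambient libraries, at 179, 162, 178 and 138 at 94 dB and at 208, 188, 166 and 212 at 105 dB. The levels overlapped each other and neither overlapped ambient (pooled log2 2.31, SE 0.20; adjusted p = 8.27e-05 by edgeR; level difference 0.24, interval -0.21 to 0.69). Nr4a3 (ENSMUSG00000028341; chromosome 4, 48045153 to 48086447) rose from 4.71, 6.93, 10.4 and 3.17 CPM to between 20.2 and 29.0 (log2 1.92, SE 0.26). In both genes ambient replicate 3 was the highest and replicate 4 the lowest ambient library. Maff, a small bZIP factor, rose from 6.07 to 9.30 CPM in the ambient libraries to 15.3 to 23.1 (log2 1.37, SE 0.12), and Klf2, a factor induced by blood flow in endothelium, from 36.2 to 57.4 to 80.5 to 121 (log2 1.09, SE 0.11). The Klf genes, a family of zinc finger factors, were set aside after the data were seen. Of all 15 tested, 8 were called higher (4 alike) and none lower, beside 7.23% higher (1.69% alike) among all genes.

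Genes whose products end the signal rose in the same libraries. Of 27 feedback kinases, phosphatases and RNA decay factors, 11 were called higher (9 alike) and 1 lower, Plk2, with a median of 0.20. Over all genes, 7.23% were called higher and 1.69% were higher alike. The higher count was 9 without ambient replicate 4. Dusp1 (ENSMUSG00000024190; chromosome 17, 26505590 to 26562128), a phosphatase that switches off MAP kinases, stood at 48.4, 63.9, 62.9 and 47.1 CPM in ambient libraries, 161, 194, 191 and 177 at 94 dB and 192, 218, 159 and 219 at 105 dB, so the levels overlapped and lay clear of ambient. Its pooled log2 change was 1.76 (SE 0.11; adjusted p = 2.81e-07 by edgeR). Gadd45g, a growth arrest and stress sensor, had the same change of 1.58 at each level and a level difference of 0.01 (interval -0.23 to 0.25).

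The smallest p-values of the whole comparison belonged to 3 genes with tight replicates, Tob2, Nfkbia and Sik1, each with an adjusted p of 5.33e-08 by edgeR. Their pooled folds were 2.20, 2.20 and 2.88. Sik1, a salt-inducible kinase that restrains CREB coactivators, stood at 36.8, 42.1, 47.5 and 32.4 CPM in ambient libraries, 116, 117, 122 and 99.6 at 94 dB and 113, 120, 107 and 121 at 105 dB. Its log2 change was 1.51 at 94 dB and 1.54 at 105 dB. Nfkbia (ENSMUSG00000021025; chromosome 12, 55489410 to 55492647), the inhibitor that holds NF-kB in the cytoplasm, stood at 55.2, 58.5, 64.4 and 53.1 CPM, then 111, 137, 127 and 124, then 131, 130, 125 and 132. In both genes the levels overlapped each other and lay clear of ambient, and for Nfkbia the interval of the level difference was -0.10 to 0.21. Tob2, an antiproliferative factor of messenger RNA decay that was picked for its p-value, rose from 42.9 to 54.8 CPM in ambient libraries to 102 to 113 in noise libraries (log2 1.14, SE 0.07). Otud1, a deubiquitinase also picked after its value was seen, rose from 26.3 to 42.5 CPM to 65.5 to 101.

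Besides Nfkbia few members of the NF-kB list were called. Of 27 pathway genes and cytokines, 3 were called higher (Nfkbia, Relb and Vcam1), a share of 11.1% against 13.8% of all genes, and none lower. At 0.18, the list median lay above the -0.01 of all genes, and it was 0.11 without ambient replicate 4. Vcam1, an adhesion molecule for leukocytes, rose alike from 143 to 210 CPM to 224 to 277 (log2 0.47, SE 0.09), while Relb was called between the levels, at 0.57 at 94 dB and 0.21 at 105 dB. The cytokines Il6, Il1b, Tnf, Ccl2 and Cxcl1 had changes of 0.52, 0.27, -0.44, 0.13 and 0.31 and were not called.

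**Figure D2:**
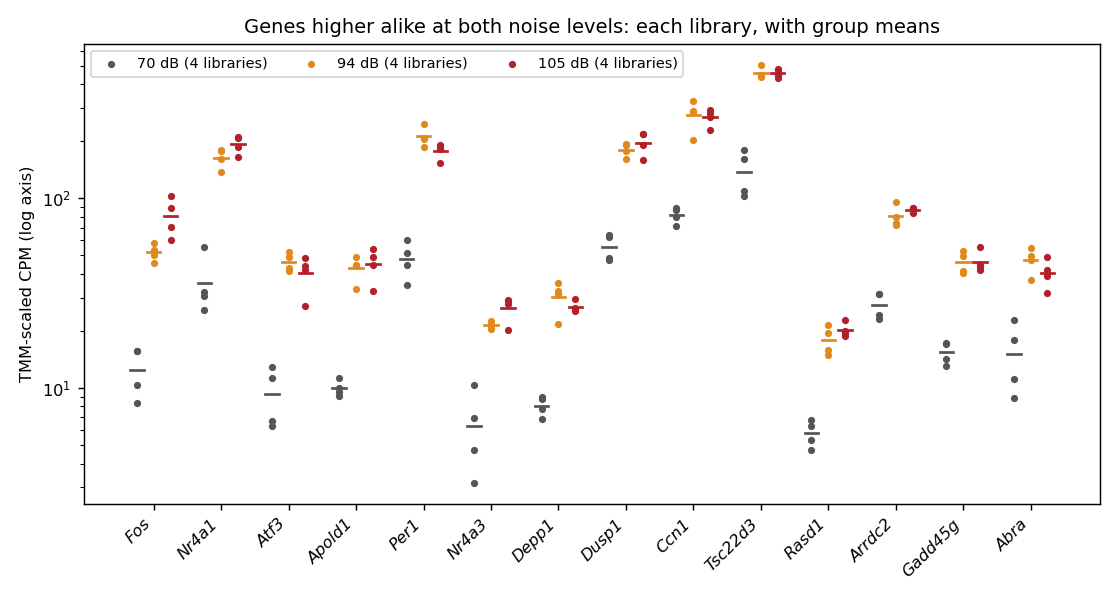
TMM-scaled CPM on a log axis for 14 of the 15 genes with the largest rise alike; each point is a library, grey for 70 dB, orange for 94 dB and red for 105 dB, and bars are group means. The 8 noise libraries lie above the 4 ambient libraries in each gene, as the rule requires, and the 94 and 105 dB points overlap except in Fos, where 45.7 to 58.3 CPM at 94 dB lies below 60.3 to 103 at 105 dB.

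Targets of the glucocorticoid receptor formed a second group. Of 20 genes in that list, 13 were called higher (7 alike), beside 7.23% (1.69% alike) of all genes. Zbtb16 was the 1 gene called lower, and the list median was 0.48. The receptor gene Nr3c1 itself had a change of -0.08 and was not called. The higher count was 8 without ambient replicate 4, 9 with an offset for GC content and length, and 10 without 94 dB replicates 3 and 4. Tsc22d3 (ENSMUSG00000031431; chromosome X, 140539528 to 140600659), which encodes the anti-inflammatory leucine zipper GILZ, stood at 103, 160, 179 and 110 CPM in ambient libraries, 442, 506, 447 and 435 at 94 dB and 480, 475, 430 and 446 at 105 dB. Its log2 change was 1.73 at both levels (pooled SE 0.14; adjusted p = 7.87e-06 by edgeR), with a level difference of 0.00 (interval -0.31 to 0.32). Ambient replicates 2 and 3 lay above replicates 1 and 4 in this gene, and the noise libraries showed no such gap.

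Sgk1, the serum and glucocorticoid regulated kinase whose GRE window is printed above, rose from 104, 116, 135 and 99.5 CPM to between 200 and 268, at 1.07 at 94 dB and 1.09 at 105 dB (pooled SE 0.09). Arrdc2, an arrestin-domain protein, rose from 23.1, 31.5, 31.1 and 24.2 CPM to between 72.1 and 96.2 (log2 1.61, SE 0.10). Klf15, a metabolic regulator induced by glucocorticoids, rose from 32.4 to 45.5 CPM to 57.1 to 71.8 (log2 0.70, SE 0.08), and Cdkn1a and Sesn1 moved alike by 0.35 and 0.25. Depp1, a small protein linked to autophagy and to FOXO factors, and Rasd1, a Ras-like protein first found as dexamethasone-induced, stood outside the list. Depp1 rose from 6.84, 8.70, 7.75 and 8.94 CPM to between 21.7 and 35.9 (log2 1.83, SE 0.12), and Rasd1 from 5.29, 4.72, 6.81 and 6.31 to between 15 and 22.7 (log2 1.73, SE 0.12).

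Clock genes were called in both directions. Of 19 core and output genes, 4 were called higher (Per1, Ciart, Nfil3 and Per2) and 4 lower (Nr1d1, Clock, Rora and Bhlhe40). The shares over all genes were 7.23% and 6.61%. The list median was -0.05, or 0.02 with an offset for GC content and length. Without ambient replicate 4 the counts of the list were 3 and 1. Per1 (ENSMUSG00000020893; chromosome 11, 69095217 to 69109960), a repressor of the clock that also answers hormones and cAMP directly, stood at 44.3, 51.6, 60.0 and 35.0 CPM in ambient libraries, 188, 207, 248 and 207 at 94 dB and 185, 190, 155 and 182 at 105 dB. Its pooled log2 change was 2.02 (SE 0.13; adjusted p = 9.32e-07 by edgeR). Ciart, a repressor of CLOCK and BMAL1, rose from 10.1, 7.22, 9.07 and 7.34 CPM to between 13.2 and 17.8 (log2 0.92, SE 0.10). Nr1d1, the nuclear receptor REV-ERB alpha, fell from 187, 135, 140 and 139 CPM to between 85.6 and 99.7 (log2 -0.67, SE 0.08), at -0.68 at 94 dB and -0.66 at 105 dB. Arntl and Dbp were not called in the pooled comparison and differed between the levels, Arntl at -0.26 and 0.16 and Dbp at 0.34 and -0.39. The labels give no hour of collection, so clock time was not compared between the groups.

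Vessel genes responded in part. Of 18 endothelial activation and vessel genes tested, 5 rose alike (Apold1, Ccn1, Ccn2, Esam and Vwf) and 1 fell alike (Sox18). Over all genes, 1.69% rose alike and 1.59% fell alike. The list median was 0.03. Pooled calls in the list also numbered 5 higher and 1 lower without ambient replicate 4, where the median was -0.01, and without 94 dB replicates 3 and 4. Apold1 (ENSMUSG00000090698; chromosome 6, 134981718 to 134986836), an early response gene of endothelium, stood at 9.53, 9.06, 11.2 and 10 CPM in ambient libraries, 44.4, 44.5, 48.9 and 33.2 at 94 dB and 44.4, 49.2, 32.3 and 54.0 at 105 dB (pooled log2 2.14, SE 0.14; adjusted p = 1.17e-06 by edgeR). Ccn1 (ENSMUSG00000028195; chromosome 3, 145646976 to 145649981), a matrix protein and target of YAP and SRF, rose from 79.6, 89.5, 86.4 and 71.2 CPM to between 203 and 325, and Ccn2, its relative, from 165 to 226 CPM to 337 to 375. The level differences were -0.04 (interval -0.30 to 0.23) and -0.01 (interval -0.20 to 0.17). Smaller rises were those of Esam, a junction protein, at 0.39 and of Vwf, the von Willebrand clotting factor, at 0.24.

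Most markers of endothelial cells were not called. Cdh5, Pecam1, Kdr, Tek and Flt1 had changes between -0.08 and -0.03, and the summed level of 9 endothelial markers was 434 to 466 CPM in ambient, 429 to 461 in 94 dB and 422 to 456 in 105 dB libraries. Sox18, a vessel transcription factor, fell from 24.2 to 30.8 CPM to 17.1 to 22.8 (log2 -0.47, SE 0.08). The related Sox7 and the apelin receptor gene Aplnr, both chosen after their values were seen, fell alike by 0.64 and 0.63 on the log2 scale. Abra, an actin-binding activator of SRF known from striated muscle, rose from 8.85 to 22.8 CPM to 31.8 to 54.8 (log2 1.53, SE 0.25), while the 9 skeletal muscle markers tested were not called and summed to 5012 to 8030, 4181 to 8612 and 6463 to 8616 CPM in the 3 groups.

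Other risers belonged to stress and metabolism. Atf4, the effector of the integrated stress response, rose alike from 184, 168, 172 and 148 CPM to between 198 and 265 (log2 0.54, SE 0.07), and it was the 1 gene of 15 in the C/EBP and integrated stress list to do so. Its targets Chac1, Trib3 and Ddit3 had changes of 0.33, 0.10 and 0.14 and were not called. Gdf15, a stress cytokine, and Hilpda, a lipid droplet protein, both picked after their values were seen, rose alike by 1.10 and 0.86. Slc2a1, the main glucose transporter of blood barriers, rose alike by 0.29 (SE 0.06) and was the 1 gene of 23 hypoxia and glycolysis entries to move alike. The host genes of small nucleolar RNAs Snhg12 and Snhg15, likewise picked afterwards, rose alike by 0.76 and 0.83. They were 2 of 12 such genes tested, beside 1.69% of all genes.

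Genes of protein quality control, a subject named in the title of the series, were called in places but none moved alike. Of 28 cytosolic heat shock genes 3 were called higher, of 25 endoplasmic reticulum folding genes 4 and of 16 NRF2 and antioxidant genes 2, shares of 10.7%, 16% and 12.5% against 13.8% of all genes. Of 31 proteasome subunits 7 were called higher and 1 lower, a share of 25.8%, and 3 of the 8 differed between the levels. In that order the medians of the 4 lists were 0.17, 0.12, 0.02 and 0.14, against -0.01 over all genes. Without ambient replicate 4 the higher calls of these 4 lists numbered 1, 0, 1 and 4. Dnajb1, an HSP40 cochaperone, was called at 0.69 (SE 0.16; adjusted p = 0.0187 by edgeR), and its highest ambient library of 125 CPM overlapped noise libraries of 123 to 184. Hspa1a, the inducible HSP70 gene, stood at 2.90, 12.7, 25.4 and 3.29 CPM in ambient libraries and at 22.2 to 43.8 in noise libraries. Ambient replicates 2 and 3 were thus above replicates 1 and 4, and the pooled change of 1.40 (SE 0.55; adjusted p = 0.119 by edgeR) was not called. Without ambient replicate 3, however, Hspa1a was called by edgeR (adjusted p = 0.0304). It was also called by the DESeq2 test. In the near-identical Hspa1b ambient replicates 2 and 3 were likewise above replicates 1 and 4, at 15, 61.2, 118 and 14.2 CPM. Reads of the pair may be split between them. Hspa5, the chaperone BiP, had a change of 0.14 (SE 0.12) and was not called, but was called by edgeR without ambient replicate 3 (adjusted p = 0.0419).

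**Figure D3:**
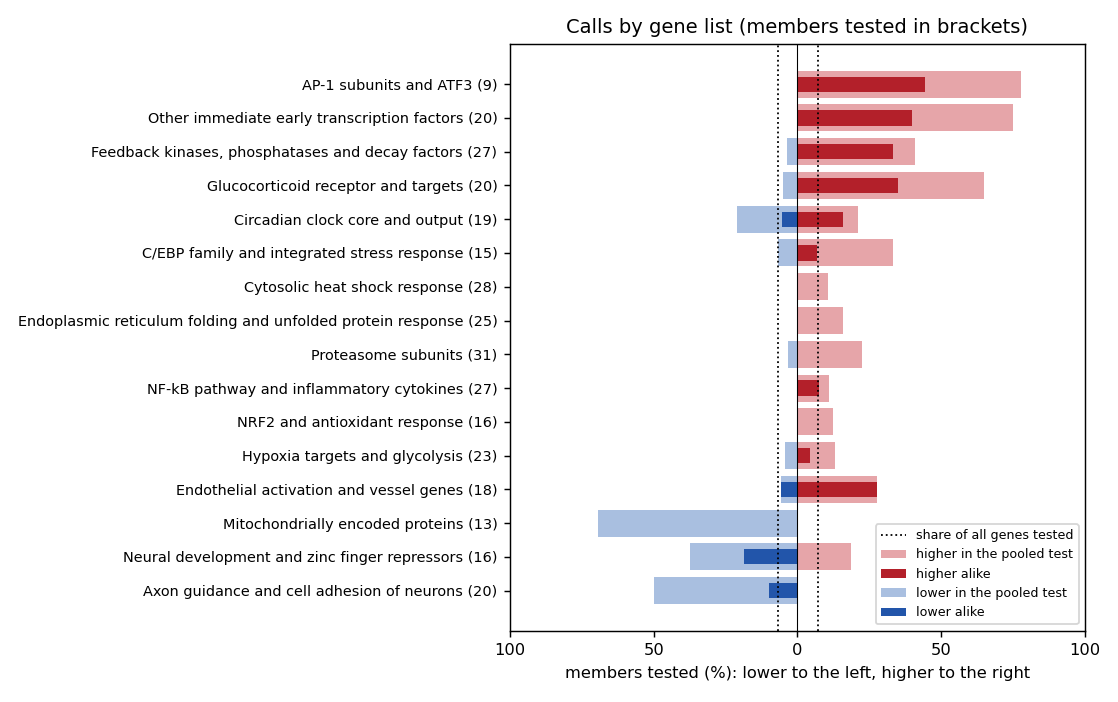
Share of each gene list called in the pooled comparison, higher to the right and lower to the left in percent of members tested, with the darker inner bar for members that moved alike; dotted lines mark 7.23% higher and 6.61% lower among all genes. AP-1 subunits reach 77.8% and the other immediate early factors 75% higher, while heat shock, endoplasmic reticulum, proteasome and NRF2 lists hold no alike member and mitochondrially encoded genes are called lower without moving alike.

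The genes that fell alike had smaller folds and belonged to other kinds of gene. Snai2 (ENSMUSG00000022676; chromosome 16, 14705852 to 14709385), a zinc finger repressor of epithelial genes and a neural crest factor, stood at 11.4, 13.3, 12.6 and 12.3 CPM in ambient libraries, 6.89, 5.10, 5.17 and 5.12 at 94 dB and 6.71, 5.85, 7.69 and 6.92 at 105 dB. Its pooled log2 change was -1.01 (SE 0.10; adjusted p = 1.13e-05 by edgeR), and the level difference of 0.29 (interval 0.03 to 0.55) was not called. Pou3f2, a POU factor of neural development, fell from 14.0, 13.1, 14.9 and 13.6 CPM to between 6.89 and 8.85 (log2 -0.80, SE 0.08). In both genes the ambient libraries were tight and the noise libraries lay well below them.

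Further developmental regulators that fell alike came from the lists of fibrocytes, the connective tissue cells of the cochlear wall, and of bone. Of 7 fibrocyte markers 3 were called lower (2 alike) and none higher. Of 12 bone markers 3 were called lower (1 alike) and 1 higher, beside 6.61% and 7.23% of all genes. Medians of the 2 lists were -0.12 and -0.0001. Without ambient replicate 4 their lower calls numbered 3 and 1. Tbx18 and Pou3f4, transcription factors of the otic mesenchyme and its fibrocytes, fell by 0.48 and 0.49 on the log2 scale, from 70.5 to 74.6 CPM to 47.7 to 60.0 and from 65.9 to 85.5 CPM to 39.1 to 62.0. Sp7, the osteoblast factor osterix, fell from 96.2 to 107 CPM to 62.0 to 89.2 (log2 -0.41, SE 0.07). Of abundant products of these cells, Coch, the main fibrocyte protein, had a change of -0.11, Otos, a secreted fibrocyte protein, of 0.56 and Col1a1, a bone collagen, of 0.01, none called in the pooled test. Otos stood at 728 to 869 CPM in ambient, 1118 to 2193 in 94 dB and 796 to 1057 in 105 dB libraries, and its levels differed by -0.84 (adjusted p = 0.0186 by edgeR). Dkk1, a secreted WNT inhibitor picked after its value was seen, fell from 26.5 to 33.5 CPM to 17.6 to 23.5 (log2 -0.62, SE 0.07). Of 16 neural development and repressor genes, 6 were called lower (Snai2, Zeb2 and Id4 alike) and 3 higher, beside 6.61% and 7.23% of all genes. The list median was -0.17. Without ambient replicate 4 the calls of the list were 5 lower and 1 higher.

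Several receptors of macrophages fell alike. Cx3cr1 (ENSMUSG00000052336; chromosome 9, 119901616 to 120069879), the fractalkine receptor of resident cochlear macrophages, stood at 27.4, 21.4, 21.6 and 24.4 CPM in ambient libraries, 17, 15, 13.4 and 14.6 at 94 dB and 15.6, 12.2, 12.6 and 13.4 at 105 dB. Its pooled log2 change was -0.74 (SE 0.09; adjusted p = 1.05e-04 by edgeR), and the levels overlapped each other well below ambient. C3ar1, the complement C3a receptor, fell from 10.1, 9.01, 7.84 and 9.88 CPM to between 4.50 and 6.86 (log2 -0.74, SE 0.11). P2ry13, a purine receptor, and Cd180, a Toll-like receptor relative, were noticed afterwards and fell alike by 0.57 and 0.59 on the log2 scale. In bulk RNA fewer cells of a type and less RNA per cell cannot be told apart.

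The summed level of 10 macrophage markers was 454 to 535 CPM in ambient, 564 to 674 in 94 dB and 492 to 547 in 105 dB libraries. Of these markers 1 was called lower (Cx3cr1) and 3 higher (C1qa, C1qb and C1qc), beside 6.61% and 7.23% of all genes. The other 6 were not called, among them Adgre1 at 0.16, Cd68 at 0.07, Aif1 at 0.25 and Mrc1 at -0.04. The complement genes differed between the levels: C1qa stood at 65.3, 79.6, 75.4 and 67.8 CPM in ambient libraries, 110, 122, 134 and 164 at 94 dB and 66.0, 75.9, 84.1 and 71.7 at 105 dB, so the 94 dB libraries lay above both other groups. Without ambient replicate 4 the counts were 2 higher and 1 lower. Cx3cr1 and C3ar1 were called whichever library was left out.

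Part of the neuronal adhesion list was called lower, and 1 ambient library stood far above its group in several genes that fell. Of 20 axon guidance and adhesion genes 10 were called lower (2 alike), beside 6.61% of all genes, and none higher, with a median of -0.30. The lower count was 5 without ambient replicate 4, 4 without 94 dB replicates 3 and 4, and 4 with the GC and length offset, where the median was -0.18. Trpa1 (ENSMUSG00000032769; chromosome 1, 14872648 to 14918862), a sensory ion channel, had the largest fall of the genes named by the rule, at -2.39 (SE 0.69). Its ambient libraries stood at 1.31, 1.46, 1.72 and 17 CPM and its noise libraries at 0.563 to 1.25, so the size rests on ambient replicate 4; the call was lost in 9 of the 12 fits with a library left out, that one included. The same replicate stood at 24.9 CPM for the calcium-binding protein Necab1 against 4.46 to 5.89 in the others and at 20.5 for Luzp2 against 8.21 to 10.7.

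Without ambient replicate 4, Trpa1, Luzp2 and Ncam2 were no longer called. Other genes named elsewhere lost their call in that fit too, among them Dnajb1, Metrn, Atp5k, Hbb-bt, Skida1 and Ccdc170. Slit2, a guidance cue of the axon list that moved alike and whose ambient libraries were tight, fell from 78.5, 78.7, 79.7 and 77.3 CPM to between 56.8 and 71.6 (log2 -0.26, SE 0.06). Across the 310 genes lower alike, ambient replicate 4 was the highest ambient library in 166, and across the 330 higher alike it was the lowest in 165. Markers of spiral ganglion neurons (14 tested) gave 1 lower call, Snap25, and hair cell markers (14 tested) none.

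**Figure D4:**
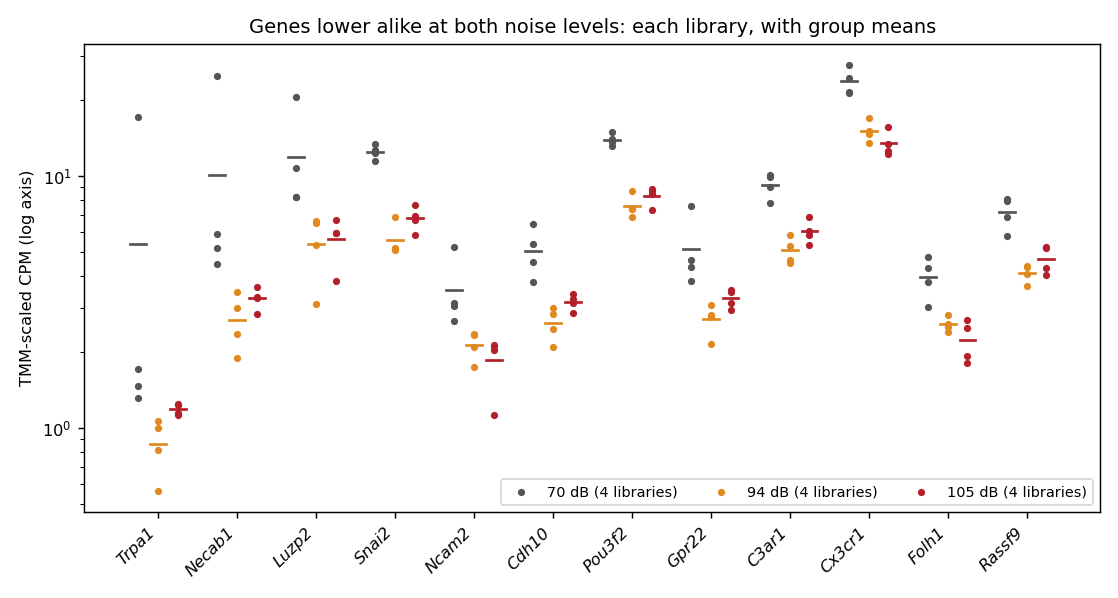
TMM-scaled CPM on a log axis for 12 of the 15 genes with the largest fall alike; each point is a library, grey for 70 dB, orange for 94 dB and red for 105 dB, and bars are group means. In Trpa1, Necab1 and Luzp2 a single ambient point, replicate 4, stands at 17, 24.9 and 20.5 CPM above the rest of its group, while Snai2, Pou3f2, Cx3cr1 and C3ar1 have 4 ambient points close together.

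The genes that rose alike differed in structure from those that fell alike, a property that the rule did not use. Genes higher alike had a median span of 9404 bases, 5 exons and an exon GC content of 52.9%, those lower alike 42090 bases, 8 exons and 44.8%, and all genes tested 18750 bases, 7 exons and 49.6%. A span over 100 kb was seen in 1.82% of the former, 28.7% of the latter and 12.4% of all genes. Across 16352 genes, which are not independent, the pooled change went with GC content at a Spearman's rho of 0.389 and with exon length at -0.334. After a correction of each library for GC content and length the alike genes numbered 340 higher, 194 of them shared with the first set, and 197 lower, 131 shared. The genes drawn in the plot of risers kept their calls in that fit, whereas Trpa1, Luzp2, Ncam2 and Zeb2 lost theirs.

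Zinc finger genes were among the genes of low GC content that fell. Of 369 genes whose symbol starts with Zfp, 65 were called lower and 14 higher, and 20 were lower alike (5.42% against 1.59% of all genes), with a median change of -0.13 and a median GC content of 44.6%. Of 55 protocadherin genes, which encode neuronal adhesion proteins and share sequence within clusters, 9 were called lower (7 alike) and none higher. Over all genes, 6.61% were called lower and 1.59% were lower alike. Both families were looked at after the data were seen.

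Many called genes did not move alike because the levels differed. Among all genes 3372 were called between 105 and 94 dB (17.3%), 1572 higher (8.06%) and 1800 lower (9.23%) at 105 dB. Without 94 dB replicates 3 and 4 this count was 217, and those libraries held 2.68% and 2.73% mitochondrial counts against 3.53% and 3.59% in the other 94 dB libraries. Of 879 genes called in both tests that had an average log2 CPM of at least 1 and a symbol that is not a gene model name, 849 changed more at 94 dB and 30 more at 105 dB.

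Fosb, an AP-1 subunit, was 1 of the 30. It stood at 0.984, 1.96, 1.03 and 1.03 CPM in ambient libraries, 4.83, 3.93, 3.47 and 4.21 at 94 dB and 7.06, 7.37, 7.66 and 8.99 at 105 dB, with no overlap between any of the 3 groups and a level difference of 0.92 (interval 0.53 to 1.31; adjusted p = 0.00483 by edgeR). Rgs1, a brake on G protein signals in immune cells, stood higher at each step, from 1.55 to 1.92 CPM to 2.65 to 3.77 and 4.51 to 6.69. In the other direction Ddit4, an inhibitor of mTOR, stood at 24.7 to 28.5 CPM in ambient libraries, 190 to 347 at 94 dB and 145 to 182 at 105 dB (pooled log2 3.06). It left the alike set since its level difference of -0.79 (interval -1.11 to -0.47) was called, as it was for Cebpb at -0.54 and Junb at -0.57. Metrn and Atp5k rose at 94 dB by 1.88 and 2.54 and at 105 dB by 0.02 and 0.72.

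Of the 13 mitochondrially encoded genes, 9 were called lower in the pooled comparison, beside 6.61% of all genes, and all 9 differed between the levels. The list medians were -0.81 at 94 dB and -0.06 at 105 dB. The lower count was 4 without ambient replicate 4, and 6 both without 94 dB replicates 3 and 4 and with the GC and length offset. The mitochondrial share of counts was 5.08% to 5.68% in ambient, 2.68% to 3.59% in 94 dB and 4.43% to 5.35% in 105 dB libraries.

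**Figure D5:**
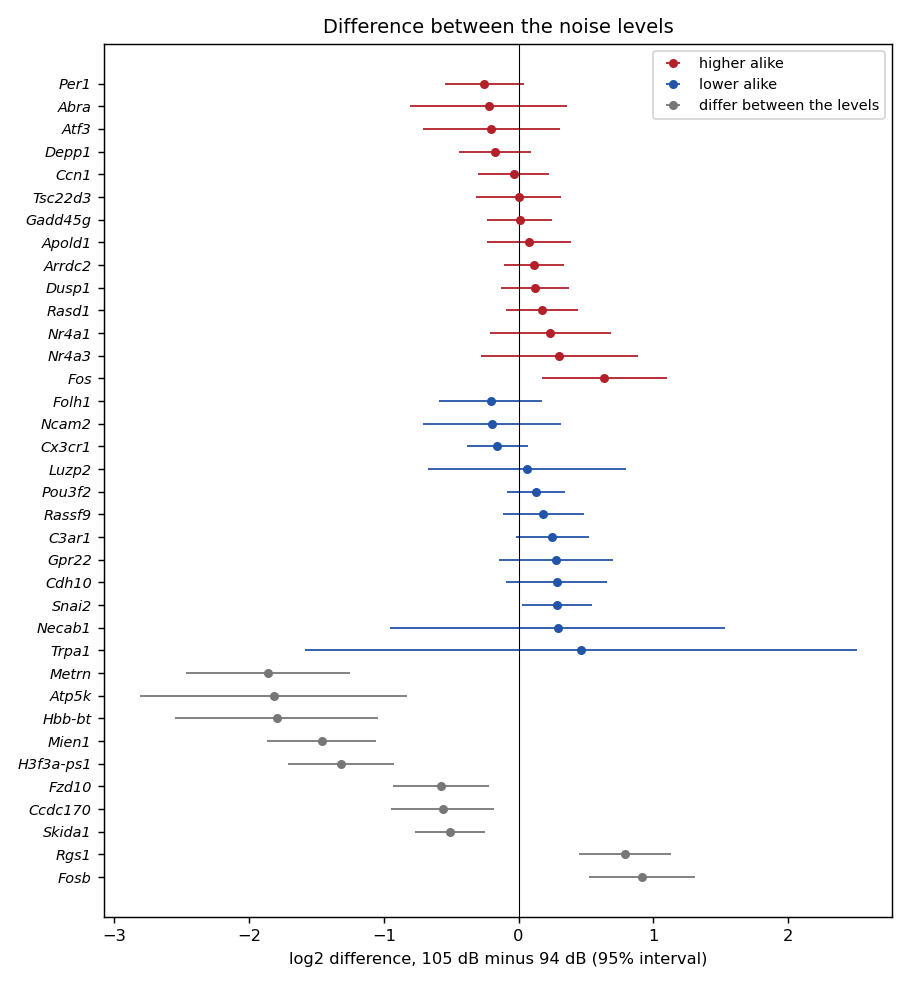
The 105 minus 94 dB log2 difference with its 95% interval for 14 genes with the largest rise alike (red), 12 with the largest fall alike (blue) and the 10 genes named for differing between the levels (grey). Intervals of Tsc22d3, Gadd45g and Ccn1 are narrow around 0, that of Trpa1 runs from -1.58 to 2.51, and those of Fosb (0.53 to 1.31) and Metrn (-2.47 to -1.25) lie away from 0.

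Blood and marrow cells can enter cochlear samples with the surrounding bone. Of 10 erythroid markers 3 were called higher, with Klf1, an erythroid factor, alike at 0.46, and of 12 neutrophil markers 3 higher (7.23% of all genes were called higher), with Mpo, a granule enzyme of young neutrophils, alike at 0.47. Summed erythroid levels were 18610 to 22800 CPM in ambient, 19250 to 32870 in 94 dB and 22770 to 31870 in 105 dB libraries, and neutrophil levels 8568 to 10590, 8703 to 16700 and 9424 to 11210. Without ambient replicate 4 each list had 1 higher call. The part of these cells in the other results was not tested. Schwann cell markers, of myelin, summed to 3275 to 5339, 2687 to 3707 and 2757 to 3818 CPM. Of the 11 markers 3 were called lower and 1 higher, beside 6.61% and 7.23% of all genes, and Erbb3 was lower alike at -0.31. The lower count was 1 without ambient replicate 4 and 8 with the replicate block.

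The samples carried the markers of cochlea. Hair cell markers summed to 180 to 210 CPM in ambient, 199 to 205 in 94 dB and 187 to 196 in 105 dB libraries, and strial markers to 1494 to 1605, 1338 to 1493 and 1476 to 1527, with no call in either list. Slc26a5, the outer hair cell motor prestin, stood at 0.141 to 0.558 CPM, near the floor of 3 counts, which is 0.0709 to 0.0963 CPM, whereas the hair cell synapse gene Otof stood at 34.2 to 46.2. Totals were 31141706 to 42317781 counts per library.

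At the border of the rule, Smarca1 and Bbs9 lay just inside with weaker changes 0.5001 and 0.5019 times the stronger, and Asf1a and Tgfbr3 just outside at 0.4953 and 0.4859. The strand setting of the counting is not given in the sources used here, so genes that share exon sequence with a gene on the other strand are uncertain. Among those named these are Dusp1 with Ergic1, Jun with Junos, Junb with Prdx2, Cebpb with Tmem189, Nr1d1 with Thra, Tob2 with Gm49476, Cd180 with Mast4, Ccn2, Vcam1, Slc2a1, Cx3cr1, Necab1, Tbx18, Zeb2, Id4, Metrn, Mien1, Cdkn1a, Arntl, Bhlhe40, Rora, Dbp, Ddit3, Il1b, Mpo and Hspa1a. Snhg12 and Snhg15 overlap the small nucleolar RNA genes they host.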

How the data were processed

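Cochlear RNA of 12 libraries, 1 µg each by the TruSeq protocol per the labels, was sequenced, and the deposited values are raw counts per gene in 1 table. Per the submitters' processing notes the authors used CASAVA, STAR, featureCounts 1.5.0-p3 and the build mm10; the sources used here give neither strand use nor how reads that map to several places were treated. From these counts, edgeR 4.0.16 (R 4.3.3) gave TMM factors, filterByExpr kept genes with a minimum count of 10, and robust quasi-likelihood tests used 1 mean per group over all 12 libraries (9 residual degrees of freedom). The contrast was the mean of both noise levels minus 70 dB, with Benjamini-Hochberg adjustment. The 47 rows without a symbol held 0.0269% of counts. Replicates of a group differed by more than sampling noise. The fit was tested on simulated data: at 1.5-fold it called 82% of changed genes and placed 62% in the alike set, among 19293 genes. The simulation gave all genes 1 common spread and both levels the same change, with no outlying library. Its smallest change, 1.5-fold, lay above the median changes of 1.34-fold and 1.29-fold in the alike sets, so recovery at those sizes was not tested.

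The members and the gene lists were chosen with earlier results of these data known. Named were, among genes that moved alike averaging at least 1 on the log2 CPM scale and with a symbol that is not a model name, the 15 largest rises and falls, plus the 3 smallest p of each of 16 pathway lists, the 2 most abundant members of each of 15 cell type lists and the 5 genes most different between levels in each direction; list members outside this rule are named in counts of their list or as having been chosen afterwards. Of these, 1 riser and 3 fallers are not reported here. Alternatives covered scaling, filters, DESeq2 1.42.0, 1 surrogate variable (sva 3.50.0), GC and length offsets (mgcv 1.9.3), a fold threshold of 1.2, left-out libraries and the replicate block.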

Additional observations from a re-analysis of the deposited data

Results flagged for a closer look

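In groups of 4 libraries, a single library stood apart from the other 3 in 14 of 126 combinations of a group with a gene or library measure. The library measures were total counts and the mitochondrial and haemoglobin shares. A rate of 1 in 20 would give 6.3. Most of these genes were chosen by their changes in the same libraries, so that rate does not strictly apply to them. In the ambient group replicate 4 stood apart in 2 falling genes, Trpa1 at 17 CPM against 1.31 to 1.72 and Necab1 at 24.9 against 4.46 to 5.89. Other ambient libraries set apart were replicate 2 for Fosb at 1.96 CPM, replicate 3 for Rgs1 at 1.92 and for Hbb-bt at 47.5 (57.8 to 59.3 in the others), and replicate 1 for Fzd10 at 11.6 and for Atp5k at 21.2 (7.09 to 8.97 in the others). At 94 dB they were replicate 2 for Tsc22d3 at 506 CPM (435 to 447 in the others), replicate 1 for Snai2 at 6.89 and for Rgs1 at 2.65, and replicate 3 for Skida1 at 7.51. At 105 dB they were replicate 3 for Nr4a3 at 20.2 CPM (27.8 to 29.0 in the others) and for Ncam2 at 1.13, and replicate 4 for Hbb-bt at 52.0 (86.0 to 92.6 in the others).

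The 10 genes chosen as most different between the levels, 5 in each direction, were called by edgeR's test of 105 against 94 dB; further named genes, Ddit4 and C1qa among them, were called too. The log2 difference, 105 minus 94 dB, was 0.918 for Fosb and 0.787 for Rgs1, which rose more at 105 dB. It was -0.576 for the WNT receptor gene Fzd10, -0.563 for Ccdc170 and -0.509 for Skida1, which fell more at 105 dB. It was -1.86 for Metrn, -1.82 for Atp5k, -1.80 for Hbb-bt, -1.46 for Mien1 and -1.32 for the pseudogene H3f3a-ps1, which rose more at 94 dB. Hbb-bt and H3f3a-ps1 have near-identical copies elsewhere in the genome, so their counts are uncertain.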

How the results depend on the processing

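Signs under the alternatives run were checked for the largest rises and falls and the 3 smallest p of each pathway list. Also checked were the genes most different between the levels, Fos, Hspa1a, Hspa1b and Hspa5. None of these fold changes changed sign, and other named genes were not checked. The balance of calls turned under upper-quartile scaling (1177 higher and 1739 lower). Medians near 0 of a few lists also changed sign (NRF2 from 0.02 to -0.001 under that scaling). Of the settings of the checked genes 1830 kept their call, 215 lost it and 3 gained it. Of the counts of lists 661 stayed within 1.5 times and 139 did not. Pooled calls numbered 836 with the noise libraries as a single group (which gives no alike counts), 157 against a 1.2-fold threshold, 1784 with GC and length offsets, 1482 without 94 dB replicates 3 and 4, and 1023 to 3249 with 1 library left out. Genes higher alike numbered 98 against the 1.2-fold threshold, 642 with overlap of libraries allowed and 247 to 553 with 1 library left out. Genes lower alike numbered 18, 770 and 159 to 570 in the same settings, 197 with the offsets and 200 with the offsets and the replicate block. With upper-quartile scaling 257 were higher and 440 lower alike. Calls between 105 and 94 dB numbered 142 against the 1.2-fold threshold, 1891 with the offsets, 2005 with the offsets and the block, 217 without 94 dB replicates 3 and 4, and 1650 to 3798 with 1 library left out; the lowest were without 94 dB replicate 3 (1650) and 94 dB replicate 4 (1860), and 105 dB replicate 4 gave 1996 and 105 dB replicate 2 gave 2057. Fewer samples were fitted in the left-out settings, and otherwise the cause was not tested.

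With the replicate number as a block, 2736 genes were called, 324 higher and 292 lower alike. Whether equal numbers mark paired samples is not given in the labels, and the correlations do not settle it. Same-numbered libraries correlated at -0.294 to 0.250 over 12 pairs, 6 pairs were over 0.1, and 6 of 12 libraries correlated best with their own number. The columns of 105 dB replicates 3 and 4 are named C4 and C5. The former correlated at -0.294 and 0.154 with ambient and 94 dB replicate 3, and at 0.162 and 0.147 with their replicate 4. A block by column name was not fitted. DESeq2 called 3636 genes. Counts near the floor of 3 limit Slc26a5 and Il6.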
